A study of Homo sapiens with 6 samples.

Results

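Zinc transporters other than SLC30A4 were examined in VCaP cells, a prostate cancer line with the TMPRSS2/ERG fusion, after knockdown of the transcription factor SOX9. The members were the 10 genes SLC30A1, SLC30A5, SLC30A6, SLC30A7, SLC30A9, SLC39A1, SLC39A6, SLC39A7, SLC39A8 and SLC39A10. Every probe set whose annotated symbol was exactly one of these was taken, which gave 30 of the 54675 probe sets on the array. All 6 arrays (Affymetrix Human Genome U133 Plus 2.0) came from this one line, grown in DMEM with 10% FBS. Of these, 2 arrays were from cells given SOX9 siRNA A, 2 from cells given SOX9 siRNA B and 2 from cells given a non-targeting control siRNA. RNA was collected 72 h after transfection. The design text calls the pairs biological duplicates. With 2 arrays a group, their number limits the precision of every value.

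Cells move zinc with 2 transporter families. The ZnT proteins, encoded by SLC30 genes, carry zinc out of the cytosol, either across the plasma membrane or into vesicles and organelles. The ZIP proteins, encoded by SLC39 genes, carry it into the cytosol from outside the cell or from organelles. Healthy prostate epithelium is known for its unusually high zinc content, which falls in prostate cancer.

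The cells carried prostate luminal markers. The 8 of 10 listed markers with a probe set of their own (KLK3, KLK2, TMPRSS2, SLC45A3, FOXA1, HOXB13, KRT8 and KRT18) were all above the filter level of a signal of 22.0, as was ERG. The leukocyte genes PTPRC and CD3E were below it, as were KRT5, COL3A1, DCN, CDH5 and VWF. The filter acts on the mean log2 value over the arrays. Single arrays reached 52.1 for VWF, 26.7 for DCN and 23 for PTPRC. KRT14 (10.3 to 51.5), COL1A1 (30.9 to 222.9) and PECAM1 (21.9 to 41.7), markers of basal, fibroblast and endothelial cells, were above the filter level. Their part in the results was not tested. SOX9 was lower in all 4 SOX9 siRNA arrays than in both control arrays. The 202935_s_at signals, in order of replicate, were 1469 and 1126 in the control arrays, 1108 and 673 in the siRNA A arrays and 609 and 334 in the siRNA B arrays. The log2 fold change for both siRNAs was -1.02 for that probe set and -1.36 for 202936_s_at. Neither passed the test (limma adjusted p = 0.571 and 0.328). Both passed with the replicate number as a block (limma adjusted p = 0.00141 and 3.25e-06).

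The arrays were not on one level. Over the 27307 probe sets tested, the median log2 difference from the control mean was -0.16 in replicate 1 and 0.15 in replicate 2 of siRNA B. For siRNA A the values were -0.014 and -0.052, and the control arrays had -0.072 and 0.072. Results for the zinc transporters are given with and without single arrays where they differ.

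Promoter sequence is shown for 3 genes named in the results below. SLC30A1 and the metallothionein gene MT2A are shown because both are known targets of MTF1, the zinc-sensing transcription factor, and were higher with siRNA A than with siRNA B. SLC39A7 is shown because, on the deposited scale, it was the one tested member with all 4 SOX9 siRNA arrays above both control arrays. That is 1 of 23 probe sets, beside 4.75% of all probe sets. After median centring of the arrays, 226161_at of SLC30A6 and 226217_at of SLC30A7 were above as well. The sequences are the 250 bases before the gene start in RefSeq, build GRCh38.p14, 5′ to 3′ on the gene's strand. Capitals mark the metal response core (TGCGCNC or TGCACNC on either strand) in SLC30A1 and MT2A, and a SOX hexamer (ACAATG or ACAAAG on either strand) in SLC39A7. The windows are chr1:211579162-211579411 on the minus strand, chr16:56608334-56608583 on the plus strand and chr6:33200617-33200866 on the plus strand.
SLC30A1: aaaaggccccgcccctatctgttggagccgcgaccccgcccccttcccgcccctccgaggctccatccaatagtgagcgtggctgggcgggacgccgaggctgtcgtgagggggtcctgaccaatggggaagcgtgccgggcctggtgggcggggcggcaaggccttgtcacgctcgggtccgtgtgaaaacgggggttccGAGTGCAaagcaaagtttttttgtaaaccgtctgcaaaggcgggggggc
MT2A: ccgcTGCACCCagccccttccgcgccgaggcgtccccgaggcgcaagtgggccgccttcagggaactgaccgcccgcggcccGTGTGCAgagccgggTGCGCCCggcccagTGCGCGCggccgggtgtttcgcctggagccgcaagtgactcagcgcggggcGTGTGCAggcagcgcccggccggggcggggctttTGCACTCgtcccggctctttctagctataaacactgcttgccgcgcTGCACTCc
SLC39A7: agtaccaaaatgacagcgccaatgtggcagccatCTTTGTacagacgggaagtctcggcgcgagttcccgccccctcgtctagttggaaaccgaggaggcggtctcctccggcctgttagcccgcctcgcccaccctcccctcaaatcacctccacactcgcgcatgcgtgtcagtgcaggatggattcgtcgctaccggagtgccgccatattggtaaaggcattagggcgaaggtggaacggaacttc

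The SLC30A1 window held 1 metal response core, on the opposite strand and starting 49 bases before the gene start. The MT2A window held 7. SLC39A7 had its SOX hexamer on the opposite strand, 216 bases before the start. All 10 members matched an entry in the promoter table, with 14 windows among them. A metal response core stood in 5 of the 14 windows and in 24.8% of all 35116 promoter windows of that length. A SOX hexamer stood in 3 of the 14, those of SLC39A1, SLC39A6 and SLC39A7, and in 21.2% of all windows. In the SLC39A6 window, which held both motifs, they lay apart, 17 and 159 bases before the start. These matches describe the letters only.

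Of the 30 probe sets, 23 passed the filter on dim signals and all 10 genes kept at least 1. The other 7 are given as values only. For both siRNAs against control, 0 of the 23 passed limma's test at a Benjamini-Hochberg adjusted p below 0.05, and 0 had an unadjusted p below 0.05. Over all probe sets 0.00366% were called, and 6.90% had an unadjusted p below 0.05. The smallest adjusted p among the 23 was 0.772. With the replicate block 0 of 23 passed as well (smallest limma adjusted p = 0.381), where 3.01% of all probe sets did. There 3 of 23 had an unadjusted p below 0.05 (SLC39A10, 220181_x_at of SLC30A5 and 209267_s_at of SLC39A8), beside 12.5% of all probe sets. The log2 fold changes ran from -0.50 to 0.46, 14 above 0 (beside 46.2% of all probe sets) and 9 below, with a median of 0.024 beside -0.027 over all probe sets. After median centring of the arrays 18 of 23 were above 0, and the share of all probe sets above 0 was not counted on that scale. The median was then 0.065 beside 0.015 over all probe sets.

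In the fit without the block, the 95% interval of the log2 fold change held 0 for all 23 probe sets, and for 19 of them it lay within -1 and 1, that is, within a 2-fold change. The highest upper bound was 1.24, for SLC39A8. With the block the interval held 0 for 20 of 23 and lay within a 2-fold change for all 23, with a highest upper bound of 0.97. The 3 that left out 0 then were SLC39A10 (-0.94 to -0.0086), 220181_x_at of SLC30A5 (-0.999 to -0.011) and 209267_s_at of SLC39A8 (0.0078 to 0.91). The intervals with the block can be too narrow, so they do not set a firm bound of 2-fold. SLC30A4, which moves zinc into vesicles, had log2 fold changes of 2.16, 1.66 and 1.61 in its 3 probe sets. Their own intervals without the block began at 1.29, 1.16 and 0.85, so 2 of the 3 overlapped the highest of the 23. No difference between SLC30A4 and the other genes was tested. For both siRNAs together the SLC30A4 values did not pass over all probe sets either (limma adjusted p from 0.0686 to 0.389). Its brightest probe set did when each gene had 1 probe set (0.0186), and all 3 passed with the replicate block. Over all probe sets without the block, the brightest passed for siRNA B alone (limma adjusted p = 0.0357) and not for siRNA A alone (0.460).

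**Figure D1:**
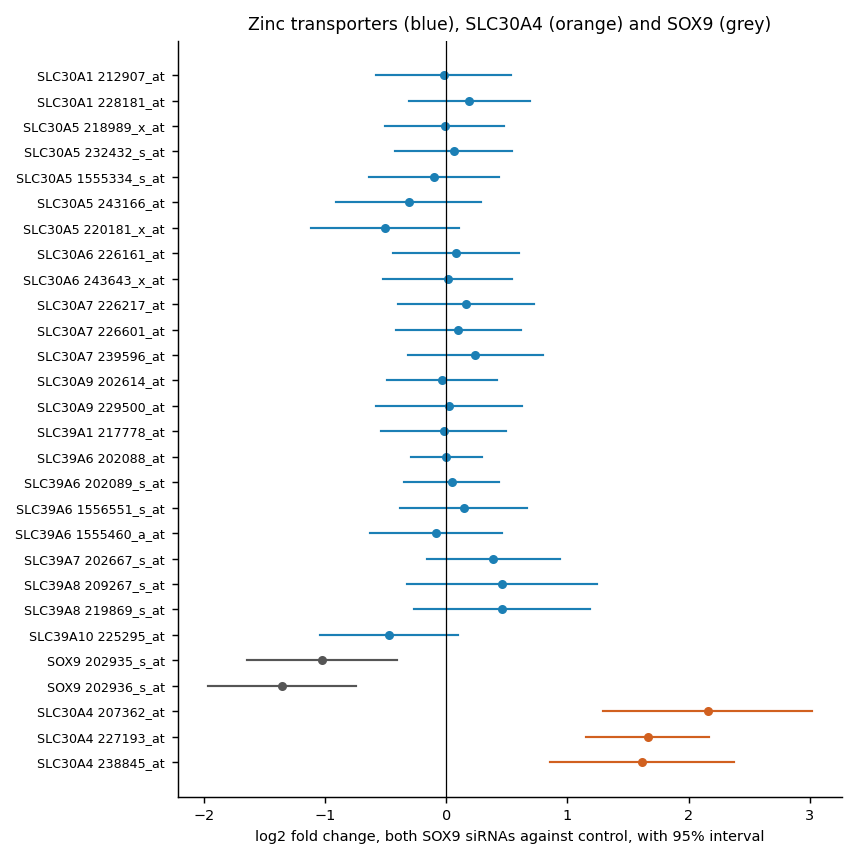
Points show the log2 fold change of log2(signal + 16) for both SOX9 siRNAs against control siRNA, by probe set, and lines the 95% interval from limma without the replicate block (2 arrays a group). The 23 zinc transporter intervals all cross 0, while those of SLC30A4 lie above it and those of SOX9 below it.

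Among the exporters, SLC30A1 sits in the plasma membrane and lowers cytosolic zinc. Its 212907_at signal was 765 and 614 in the control pair, 835 and 927 in the siRNA A pair and 399 and 672 in the siRNA B pair. Its 228181_at signal was 93.4 and 97.6, 113 and 154, and 84.5 and 103 in the same order. In both probe sets the siRNA A arrays were above all others, and in each the first siRNA B array lay below the control pair. Both siRNA A arrays lay above both controls in 4 of the 23 probe sets, beside 14.4% of all probe sets. They lay above both siRNA B arrays in 3 of the 23, beside 4381 of all 27307. Replicate 1 of siRNA B also had the lowest median difference from control over all probe sets, at -0.16. The log2 difference between siRNA A and siRNA B was 0.75 for 212907_at (SE 0.30, limma unadjusted p = 0.0258, adjusted p = 0.568) and 0.44 for 228181_at (SE 0.27, adjusted p = 0.820). Neither passed, with the block or without it (0.138 and 0.550 with it). Against control, 212907_at had 0.35 with siRNA A and -0.39 with siRNA B. Without replicate 1 of siRNA B its change for both siRNAs was 0.16, beside a median of 0.053 over all probe sets. Without the replicate 2 arrays of the SOX9 siRNAs it was -0.24, beside a median of -0.096. Its sign thus depended on which arrays were kept. The probe set 242716_at was near background in every array, with signals from 0.7 to 2.2.

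SLC30A5 and SLC30A6 form a heterodimer that loads zinc into the early secretory pathway, where zinc enzymes are assembled. The brightest SLC30A5 probe set, 218989_x_at, had 1210.4 and 1377 in the control pair, 1309 and 1299 in the siRNA A pair and 1018 and 1549 in the siRNA B pair. The siRNA B arrays spanned all the others. Its log2 fold change was -0.012 (95% interval -0.50 to 0.48). The 232432_s_at, 1555334_s_at and 243166_at probe sets had 0.061, -0.10 and -0.31.

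The dimmest tested SLC30A5 probe set, 220181_x_at, did not follow the brightest from array to array (Pearson r = -0.61 over 6 arrays that share their scaling). It had 52.6 and 50.0 in the control pair, 42.2 and 30.9 in the siRNA A pair and 43.6 and 15.1 in the siRNA B pair, all 4 SOX9 siRNA arrays below both controls. On the log2 scale it changed by -0.50 (SE 0.29, limma adjusted p = 0.777), the most negative of the 23. After median centring its groups overlapped. Probe sets ending in _x_at can hybridise to other transcripts. Of the 5 SLC30A5 probe sets 1 had a value above 0 and 4 had values below, and none passed.

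For SLC30A6, 226161_at had 402 and 444 in the control pair, 421 and 437 in the siRNA A pair and 401 and 547 in the siRNA B pair. Only replicate 2 of siRNA B lay above the control range. Its fold change on the log2 scale was 0.084 (95% interval -0.44 to 0.60), and that of 243643_x_at was 0.013. Another probe set, 226162_at, was below the filter and untested. It had 21.2 and 23.5 in the control pair, 10.9 and 10.3 in the siRNA A pair and 21.4 and 24.7 in the siRNA B pair. The siRNA A arrays were lower there, at signals near or below the filter level. The remaining SLC30A6 probe set, 220814_at, ran from 1.0 to 13.3.

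SLC30A7 supplies zinc to the Golgi. The 226217_at signal was 326 and 326 in the control pair, 328 and 326 in the siRNA A pair and 315 and 536 in the siRNA B pair. In 226601_at it was 273 and 271, 266 and 275, and 273 and 363. Both probe sets were level over 5 arrays and high in replicate 2 of siRNA B alone. Their log2 fold changes were 0.16 and 0.097 with all arrays. Without the replicate 2 arrays of the SOX9 siRNAs they were -0.020 and -0.011, beside a median of -0.096 over all probe sets. The dim 239596_at had 0.24 (95% interval -0.31 to 0.80).

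SLC30A9 moves zinc out of mitochondria. Its 202614_at signal was 1397 and 1571 in the control pair, 1623 and 1364 in the siRNA A pair and 1285 and 1536 in the siRNA B pair, with the 3 groups overlapping. On the log2 scale the change was -0.035 (95% interval -0.49 to 0.42). For 229500_at it was 0.024, with signals of 192 and 378 in the siRNA B replicates.

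**Figure D2:**
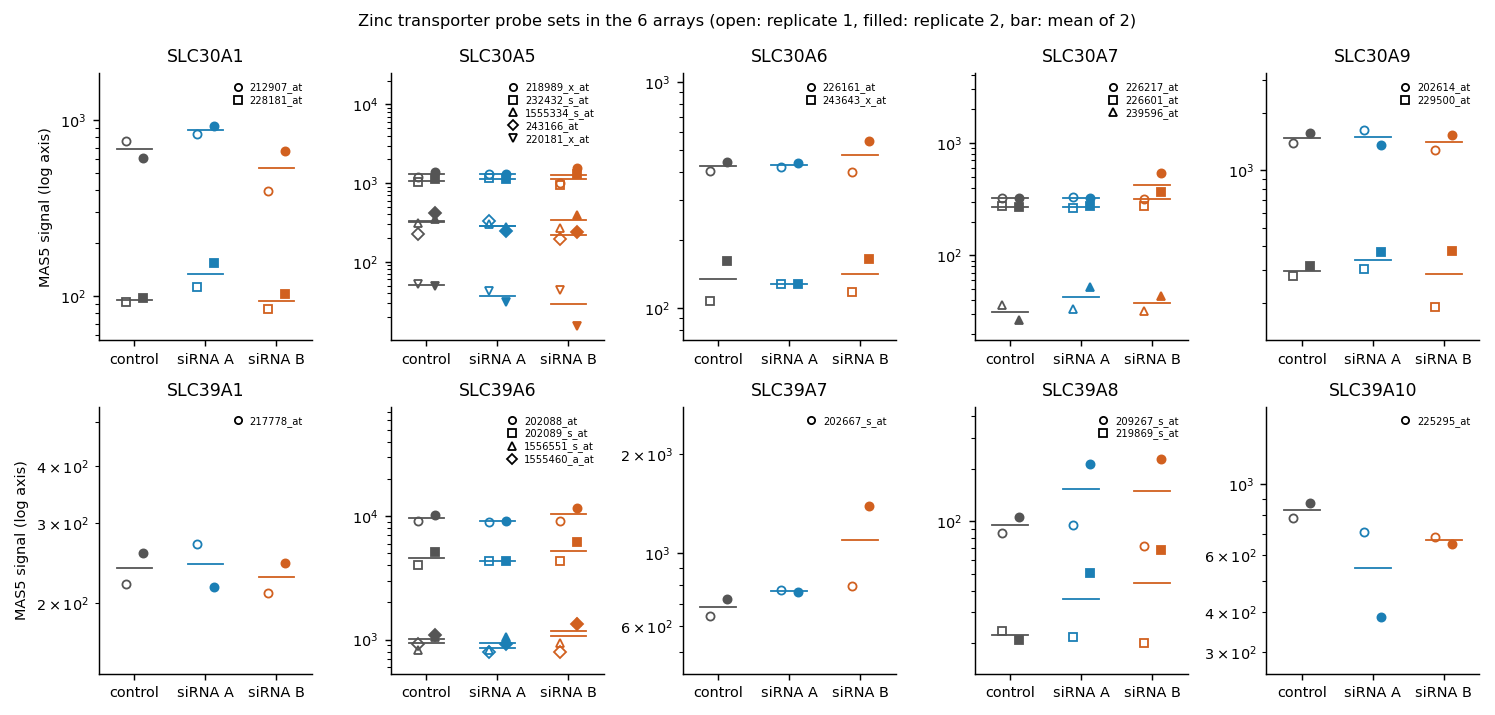
MAS5 signal (log axis) of each tested probe set of the 10 zinc transporters in the control, siRNA A and siRNA B arrays; symbols mark probe sets, open points replicate 1, filled points replicate 2 and bars the mean of 2. The point that stands apart for SLC39A7 is replicate 2 of siRNA B, at 1393, and for SLC39A10 replicate 2 of siRNA A, at 384.

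Among the importers, SLC39A1 brings zinc across the plasma membrane and is known as a main uptake route of prostate epithelial cells. Its one probe set had 220.5 and 258 in the control pair, 270.0 and 217 in the siRNA A pair and 210.3 and 246 in the siRNA B pair. The groups overlapped fully. On the log2 scale the change was -0.021 (95% interval -0.54 to 0.49), or 0.985 times the control level with an interval of 0.690 to 1.41.

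SLC39A6, or LIV-1, is an oestrogen-regulated importer. Its 202088_at signal was 9122 and 10220.4 in the control pair, 9032 and 9193 in the siRNA A pair and 9119.5 and 11543 in the siRNA B pair. This was the most precise measurement among the members, with a log2 fold change of 0.0020 and a 95% interval of -0.29 to 0.30. The 202089_s_at, 1556551_s_at and 1555460_a_at probe sets had 0.045, 0.14 and -0.086. In all 4 probe sets replicate 2 of siRNA B had the highest signal. Without the replicate 2 arrays of the SOX9 siRNAs all 4 had values below 0, from -0.33 to -0.078, and none passed. In that fit the median was -0.096 over all probe sets and -0.085 over the 23 members, so values below 0 were common.

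SLC39A10 is the closest relative of SLC39A6, and the 2 proteins are known to form a complex. Its one probe set, 225295_at, had 785 and 872 in the control pair, 708 and 384 in the siRNA A pair and 686 and 650.0 in the siRNA B pair. All 4 SOX9 siRNA arrays were below both controls, by a wide margin only in replicate 2 of siRNA A. The mean was 829 ± 61.9 in control, 546 ± 229 under siRNA A and 668 ± 25.7 under siRNA B (SD over 2 arrays). The log2 fold change for both siRNAs was -0.48 (SE 0.27, 95% interval -1.04 to 0.093), the smallest unadjusted p of the members at 0.0948, and did not pass (limma adjusted p = 0.772; 0.384 with the replicate block). It was -0.65 for siRNA A (adjusted p = 0.9996) and -0.30 for siRNA B (adjusted p = 0.797). Over the 18 alternatives that tested it, its value ran from -0.69 to -0.24, and in 0 of them was it called. With all 4 SOX9 siRNA arrays below both controls, leaving out arrays could not reverse its direction. Alternatives such as the trend and the block do not change the value at all. The kept direction is thus no separate support.

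Across the 6 arrays, the probe sets whose log2 values followed SLC39A10 most closely were those of STC2, a secreted glycoprotein hormone, RORA, a nuclear receptor, and MAP2K5, a kinase. Their Pearson correlations with it were 0.998, 0.997 and 0.997. These are the 3 highest of 23079 candidates, over 6 points that share arrays and scaling, and 687 candidates had a correlation above 0.9. Their own log2 fold changes were -0.40, -0.37 and -0.26, and none passed (limma adjusted p from 0.808 to 0.894).

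SLC39A7 releases zinc from the endoplasmic reticulum and Golgi. It had 645 and 725 in the control pair, 772 and 763 in the siRNA A pair and 797 and 1393 in the siRNA B pair. All 4 SOX9 siRNA arrays were above both controls, with replicate 2 of siRNA B far above the rest. The log2 fold change was 0.39 for both siRNAs (SE 0.26, 95% interval -0.16 to 0.94, limma adjusted p = 0.824), 0.16 for siRNA A and 0.61 for siRNA B (limma adjusted p = 0.4996). Without replicate 1 of siRNA B, the value for siRNA B was 1.01 and passed (limma adjusted p = 0.0270), where 7.62% of all probe sets did, with 4.90% of all called higher. That fit rests on replicate 2 of siRNA B alone and takes its spread from the other groups. Without the replicate 2 arrays of the SOX9 siRNAs the change for both was 0.19, beside a median of -0.096 over all probe sets.

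SLC39A8 carries zinc, manganese and cadmium. Its 209267_s_at signal was 85.4 and 106 in the control pair, 94.7 and 212 in the siRNA A pair and 72.3 and 228 in the siRNA B pair. In 219869_s_at it was 23.5 and 20.8, 21.6 and 50.4, and 20.0 and 68.0. In both, replicate 2 of each SOX9 siRNA was above all 4 other arrays, and the replicate 1 arrays lay close to the control pair. Replicate 2 exceeded replicate 1 of 209267_s_at by 1.05 with siRNA A, 1.46 with siRNA B and 0.26 with control on the log2 scale. The log2 fold change for both siRNAs was 0.46 in each probe set (SE 0.37 and 0.34, limma adjusted p = 0.871 and 0.851). Without the replicate 2 arrays of the SOX9 siRNAs it was -0.17 and -0.051, beside a median of -0.096 over all probe sets. The other 4 SLC39A8 probe sets were below the filter, with signals from 0.7 to 14.7.

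The share of members whose groups did not overlap was near that of all probe sets. All 4 SOX9 siRNA arrays lay above both controls for 1 of the 23 probe sets (SLC39A7), beside 4.75% of all probe sets. They lay below for 2 (SLC39A10 and 220181_x_at of SLC30A5), beside 10.9%. After median centring 3 were above, beside 9.65% of all probe sets, with 226161_at of SLC30A6 and 226217_at of SLC30A7 added, and 1 was below, beside 8.43%. SLC39A7 and SLC39A10 kept their sides under both scalings.

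**Figure D3:**
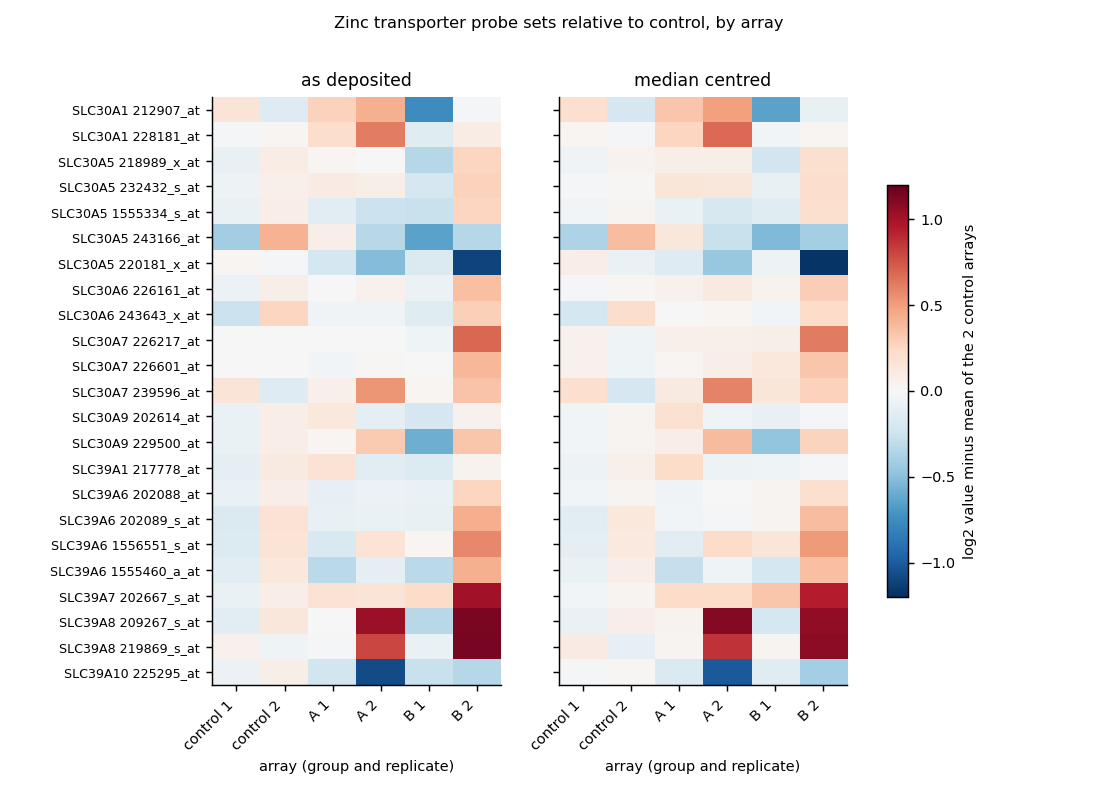
Colour shows each array's log2 value minus the mean of the 2 control arrays for the 23 zinc transporter probe sets (rows), as deposited (left) and after median centring of the arrays (right). Replicate 2 of siRNA B is above control in 19 of 23 rows as deposited, and replicate 1 of siRNA B in 4 of 23.

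Each siRNA alone gave no zinc transporter call. With siRNA A 0 of 23 passed, beside 0.00732% of all probe sets, and 0 had an unadjusted p below 0.05, beside 3.86% (smallest limma adjusted p = 0.9996). With siRNA B 0 of 23 passed, beside 0.0623%, and 0 had an unadjusted p below 0.05, beside 10.3% (smallest limma adjusted p = 0.4996). These comparisons share the control arrays. Between siRNA A and siRNA B 0 passed, beside 0.0476%, and 1, SLC30A1, had an unadjusted p below 0.05, beside 7.48%. Log2 differences above 0 numbered 13 of 23 for siRNA A (beside 44.9%), 13 for siRNA B (48.6%) and 11 between the siRNAs (46.0%). With the replicate block 0 of 23 passed in all 3, beside 1.30%, 5.60% and 2.60%. Unadjusted p-values below 0.05 numbered 1 for siRNA A (beside 8.23%), 2 for siRNA B (16.6%) and 1 between the siRNAs (12.1%) in that fit. Replicate 2 minus replicate 1 had a median over the 23 of 0.0020 with siRNA A, 0.48 with siRNA B and 0.16 with control, beside -0.040, 0.32 and 0.14 over all probe sets. It was positive in 13 of 23 for siRNA A (beside 45.5% of all probe sets), 21 for siRNA B (75.02%) and 18 for control (71.1%).

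Of the 14 other zinc transporter genes listed, 10 were tested through 15 probe sets. For both siRNAs 0 passed, and 0 had an unadjusted limma p below 0.05, beside 6.90% of all probe sets. The 15 had a median log2 fold change of -0.085, 6 above 0 (beside 46.2% of all probe sets) and 9 below. SLC39A9, an importer of the Golgi and plasma membrane, had 0.55 in the dim 217859_s_at and 0.37 in the bright 222445_at (limma adjusted p = 0.762 and 0.807). The 222445_at signal was 1018 and 961 in the control pair, 1127 and 1237 in the siRNA A pair and 1130.5 and 1705 in the siRNA B pair. All 4 SOX9 siRNA arrays lay above both controls there, as in 4.75% of all probe sets. SLC39A4, the intestinal importer, had -0.34, with 290.5 and 303, 255 and 243, and 221 and 206. A dim SLC39A9 probe set, 216009_at, had -0.13. SLC39A5 had -0.38 and SLC30A2 0.43. With the replicate block 1 of the 15, 217859_s_at, passed for siRNA B (0.88, limma adjusted p = 0.0295), beside 5.60% of all probe sets.

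Metallothioneins bind zinc in the cytosol, and their genes are switched on with SLC30A1 by MTF1 when zinc rises. Of 12 listed genes, metallothioneins and MTF1, 8 were tested through 13 probe sets. Their median log2 fold change was 0.96 with siRNA A, 12 above 0 and 1 below, and 0.021 with siRNA B, 8 above and 5 below, beside -0.035 and -0.012 over all probe sets. None was called in the fit without the block. In that fit 8 of 13 had an unadjusted limma p below 0.05 with siRNA A, beside 3.86% of all probe sets. With siRNA B 0 did, beside 10.3%. With the replicate block 7 of 13 rose with siRNA A, beside 1.30% of all probe sets called. With siRNA B 0 passed in it, beside 5.60%. For siRNA A against siRNA B 0 passed without the block, beside 0.0476%, and 8 had an unadjusted limma p below 0.05, beside 7.48%. With the block 8 passed, all higher with siRNA A, beside 2.60%.

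MT2A had a signal of 2610.4 and 2354 in the control pair, 3639 and 6468 in the siRNA A pair and 1966 and 3029 in the siRNA B pair. MT1X had 1901 and 1659, 2392 and 5319, and 1468 and 2294 in 208581_x_at. Both siRNA A arrays were above both controls in each, as in 14.4% of all probe sets, with replicate 2 far above replicate 1. The log2 difference between siRNA A and siRNA B was 0.99 for MT2A (limma adjusted p = 0.291; 0.00110 with the block). It was 1.24 for MT1F in 217165_x_at (0.297; 0.000738) and 1.01 for MT1E in 212859_x_at (0.381; 0.00316). All 9 tested metallothionein 1 and 2 probe sets are of the _x_at kind and the genes are near-identical, so they can share signal and are not 9 independent measurements. MTF1 had 0.27 to 0.33 for both siRNAs in its 3 probe sets, and none passed.

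The mean difference from control over the 9 probe sets was 0.42 and 1.62 in the siRNA A replicates and -0.31 and 0.27 in those of siRNA B. For the 2 SLC30A1 probe sets it was 0.24 and 0.52, and -0.45 and 0.032. Both sets thus had their highest array in replicate 2 of siRNA A and their lowest in replicate 1 of siRNA B. The latter array also had the lowest median over all probe sets, at -0.16. After median centring the log2 differences between siRNA A and siRNA B ran from 0.89 to 1.29 for the metallothioneins and were 0.78 and 0.47 for SLC30A1, beside 0.86 to 1.26, and 0.75 and 0.44, as deposited.

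**Figure D4:**
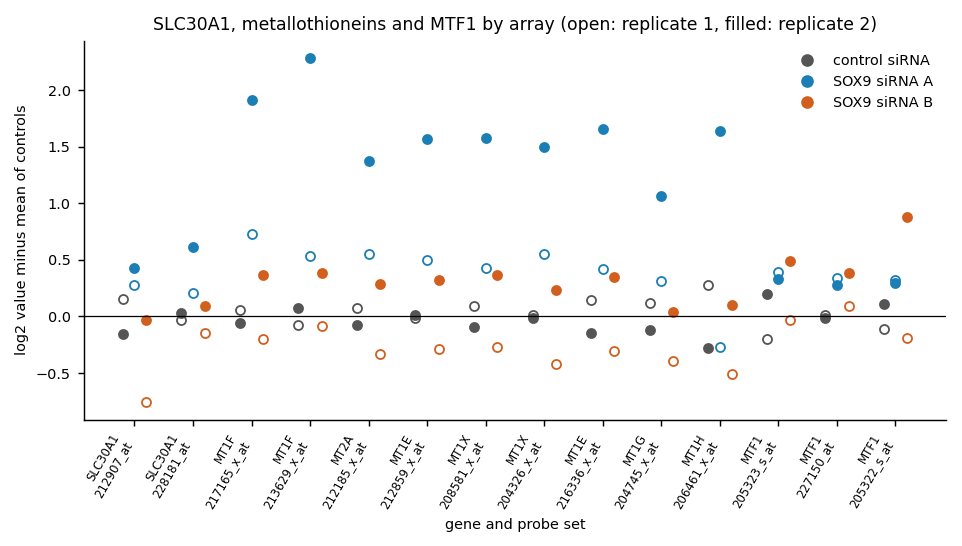
Points show the log2 value minus the mean of the 2 control arrays for SLC30A1, metallothionein 1 and 2 and MTF1 probe sets; colours mark the groups, open points replicate 1 and filled points replicate 2. Replicate 2 of siRNA A is highest for the metallothioneins and SLC30A1, at means of 1.62 and 0.52.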

How the data were processed

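The authors deposited linear array intensity, 1 MAS5 signal per probe set, per the submitters' processing notes; how MAS5 was scaled is not stated in the notes used here. Signals entered as log2(signal + 16) on the deposited scale, which understates the change of dim probe sets. The 62 control probe sets were dropped, as was the lower part of the rest by mean, under 5.25 (log2; a signal of 22.0), leaving 27307. Symbols came from the platform annotation table: 41097 probe sets had 1 gene symbol, 1801 several and 11777 none.

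All 3 groups were fitted with limma 3.58.1 in R 4.3.3 (lmFit, eBayes with an intensity trend), with Benjamini-Hochberg adjustment over all probe sets tested, calls below 0.05 and 3 residual degrees of freedom. The fit was tested on simulated data with independent arrays on one level. That test does not cover the level differences and shared deviations of these arrays. P-values measure the spread between these arrays. The labels do not say that replicate numbers mark a shared culture. Correlations of deviations between same-numbered arrays were 0.59 (siRNA A, siRNA B), 0.15 (siRNA A, control) and 0.15 (siRNA B, control), each over 0.1. The fit without the block remained the main one, as fixed in the design, and gives the p-values and intervals unless the block is named. In the blocked fit the median prior degrees of freedom were infinite, which can make its p-values too small and its intervals too narrow.

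The members and lists were chosen with earlier results of these data known. Named by rule were SOX9, SLC30A4, all member probe sets, up to 4 genes of each list by smallest p, and the 3 probe sets most correlated with the member of smallest p. MTF1 was named after its values were seen. Alternatives covered offset, scaling, filter, threshold, 1 probe set per gene, trend, groups fitted, the block and arrays left out.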

Additional observations from a re-analysis of the deposited data

How the results depend on the processing

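None of the 23 zinc transporter probe sets was called for both siRNAs under any alternative run, and the 1 call in another comparison was SLC39A7 for siRNA B without replicate 1 of siRNA B. Over all probe sets the limma calls numbered 1 for both siRNAs, 2 for siRNA A, 17 for siRNA B and 13 for siRNA A against siRNA B. With an offset of 4 the count was 1 for siRNA A and 4 for siRNA A against siRNA B. With an offset of 64 the count was 4 for both siRNAs. With quantile normalisation the count was 0 for both siRNAs (2349 at an unadjusted limma p below 0.05), 0 for siRNA A (1329 at an unadjusted limma p below 0.05), 0 for siRNA B (3794 at an unadjusted limma p below 0.05) and 0 for siRNA A against siRNA B (3029 at an unadjusted limma p below 0.05). With median centring the count was 0 for both siRNAs (2129 at an unadjusted limma p below 0.05), 0 for siRNA A (1181 at an unadjusted limma p below 0.05), 0 for siRNA B (3418 at an unadjusted limma p below 0.05) and 0 for siRNA A against siRNA B (2686 at an unadjusted limma p below 0.05). With no filter on dim signals the count was 0 for both siRNAs (3190 at an unadjusted limma p below 0.05), 0 for siRNA A (2438 at an unadjusted limma p below 0.05), 0 for siRNA B (4067 at an unadjusted limma p below 0.05) and 0 for siRNA A against siRNA B (3373 at an unadjusted limma p below 0.05). With a stricter filter the count was 7 for both siRNAs, 45 for siRNA B and 22 for siRNA A against siRNA B. With 1 probe set per gene the count was 5 for both siRNAs. With no intensity trend the count was 1 for siRNA A, 0 for siRNA B (2715 at an unadjusted limma p below 0.05) and 4 for siRNA A against siRNA B. With fits of the compared groups alone the count was 9 for siRNA B and 41 for siRNA A against siRNA B. With the SOX9 siRNA arrays as 1 group the count was 0 for both siRNAs (1520 at an unadjusted limma p below 0.05). With the replicate block the count was 821 for both siRNAs, 356 for siRNA A, 1528 for siRNA B and 709 for siRNA A against siRNA B. With the replicate block and median centring the count was 633 for both siRNAs, 122 for siRNA A, 1641 for siRNA B and 812 for siRNA A against siRNA B. With the replicate 2 arrays of the SOX9 siRNAs left out the count was 0 for both siRNAs (1198 at an unadjusted limma p below 0.05). With a threshold of 0.10 the count was 5 for both siRNAs, 38 for siRNA B and 40 for siRNA A against siRNA B. Leaving out 1 array at a time gave 0 to 165 for both siRNAs, 0 to 8 for siRNA A, 0 to 2080 for siRNA B, 0 to 575 for siRNA A against siRNA B, and 0 to 1 zinc transporter calls for siRNA B. The highest of these counts came without SOX9 siRNA B replicate 1 for both siRNAs, without SOX9 siRNA A replicate 1 for siRNA A, without SOX9 siRNA B replicate 1 for siRNA B, without SOX9 siRNA B replicate 1 for siRNA A against siRNA B. The log2 fold change for both siRNAs changed sign with quantile normalisation, to 0.014 for SLC39A1 217778_at. The log2 fold change for both siRNAs changed sign with median centring, with or without the replicate block, to 0.0065 for SLC30A9 202614_at, 0.021 for SLC30A1 212907_at, 0.020 for SLC39A1 217778_at and 0.029 for SLC30A5 218989_x_at. The log2 fold change for both siRNAs changed sign with the replicate 2 arrays of the SOX9 siRNAs left out, to -0.078 for SLC39A6 1556551_s_at, -0.089 for SLC39A6 202088_at, -0.085 for SLC39A6 202089_s_at, -0.17 for SLC39A8 209267_s_at, 0.00017 for SLC39A1 217778_at, -0.051 for SLC39A8 219869_s_at, -0.038 for SLC30A6 226161_at, -0.020 for SLC30A7 226217_at, -0.011 for SLC30A7 226601_at, -0.28 for SLC30A9 229500_at, -0.053 for SLC30A5 232432_s_at and -0.10 for SLC30A6 243643_x_at. With 1 array left out, the values that crossed 0 ran from -0.23 to 0.032 for SLC30A5 1555334_s_at, -0.27 to 0.10 for SLC39A6 1555460_a_at, -0.019 to 0.31 for SLC39A6 1556551_s_at, -0.083 to 0.087 for SLC39A6 202088_at, -0.13 to 0.22 for SLC39A6 202089_s_at, -0.12 to 0.049 for SLC30A9 202614_at, -0.20 to 0.16 for SLC30A1 212907_at, -0.13 to 0.084 for SLC39A1 217778_at, -0.16 to 0.14 for SLC30A5 218989_x_at, -0.024 to 0.19 for SLC30A6 226161_at, -0.023 to 0.35 for SLC30A7 226217_at, -0.00035 to 0.20 for SLC30A7 226601_at, -0.21 to 0.25 for SLC30A9 229500_at, -0.059 to 0.18 for SLC30A5 232432_s_at, -0.72 to 0.11 for SLC30A5 243166_at, -0.25 to 0.27 for SLC30A6 243643_x_at and -0.033 to 0.90 for SLC30A2 230084_at. Of the 23 zinc transporter probe sets, those that kept their sign in every alternative run were those of SLC39A10, SLC39A7, 220181_x_at of SLC30A5, 228181_at of SLC30A1 and 239596_at of SLC30A7. So did the SLC30A4 probe sets and, of the other zinc transporters named, SLC39A9 217859_s_at, SLC39A5 and SLC39A4. In SLC39A10, SLC39A7, 220181_x_at, SLC30A4, SLC39A5 and SLC39A4, all 4 SOX9 siRNA arrays lay on one side of both controls. Leaving out arrays could not change the sign of these, so their kept sign is no separate support. Alternatives such as the trend and the block leave every log2 fold change as it was. With the replicate 2 arrays of the SOX9 siRNAs left out, the median log2 fold change over all probe sets was itself -0.096. The cause of the changes was not tested. Signals near background limit the 7 untested probe sets.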

Other observations

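Citrate metabolism was examined because prostate epithelium, through zinc, is known to make and export citrate. Of 10 listed genes, 8 were tested through 18 probe sets, and 0 passed for both siRNAs, with 4 at an unadjusted limma p below 0.05 (beside 6.90% of all probe sets) and a median log2 fold change of -0.085. The 4 were all of ANKH, a membrane protein that exports citrate and pyrophosphate. The brightest, 223092_at, had 2156 and 2129 in the control pair, 1810.3 and 1346 in the siRNA A pair and 1340.5 and 1112 in the siRNA B pair. In 220076_at the signal was 139 and 145, 79.0 and 66.7, and 76.7 and 49.1. All 4 SOX9 siRNA arrays lay below both controls in these 4 probe sets, beside 10.9% of all probe sets. They were picked by p-value in these same arrays, so the lack of overlap is no separate support. Their log2 fold changes were -0.93 in 220076_at, -0.63 in 223092_at, -0.69 in 229176_at and -0.66 in 223093_at (limma adjusted p from 0.506 to 0.649). With the replicate block 1 of the 18 probe sets, 220076_at, passed (limma adjusted p = 0.00423), beside 3.01% of all probe sets. The other ANKH probe set tested, 223094_s_at, had -0.21. IDH3A had 0.42 in 231137_at, IDH2 -0.27 in 210046_s_at and ACO1, cytosolic aconitase, 0.32 in 207071_s_at, and none of these passed.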
